A study of Arabidopsis thaliana with 38 samples.

Results

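*PUB19* (locus AT1G60190 on chromosome 1) encodes a plant U-box ubiquitin ligase and was followed through its ATH-1 probe set, 264217_at, 1 of 22746 probe sets for plant genes, in 35 biological samples of 13 *Arabidopsis thaliana* lines. The gene was chosen by its increase in HSP90-reduced lines in earlier results from these arrays, so its changes against controls are given as a description with no test. The probe set is the single one that the annotation pairs with *PUB19*, and it passed the filter on low values. All plants were of the Col-0 accession, 14 days old, grown in long days on GM medium, and each sample was aerial tissue pooled from several seedlings. The expression of several cytosolic HSP90 isoforms was targeted in the HSP90-RNAi lines by hairpin constructs driven by the 35S promoter, with construct A in RNAi-A1, RNAi-A2 and RNAi-A3, construct B in RNAi-B1 and construct C in RNAi-C1. Control-1, Control-2 and Control-3 carried the vector with no HSP90 sequence, so the RNAi lines and these controls shared the vector and its kanamycin resistance. Each of these lines descends from 1 transformant. The HSP90-TDNA lines (Salk_hsp90.1, Salk_hsp90.2 and Salk_hsp90.3 in the labels) were homozygous for an insertion in the HSP90 gene each is named for, *hsp90.2-3* carries a point mutation in the ATP-binding domain of HSP90.2, and Col-0 (CS60000) was the untransformed control. The RNAi, HSP90-TDNA and *hsp90.2-3* lines are together called HSP90-reduced here. In the paper's protein blots, however, HSP90 was not lower in HSP90.1-TDNA, and no level is listed for *hsp90.2-3*.

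The U-box is a small domain that recruits a ubiquitin-conjugating enzyme, and the ligase brings that enzyme to the protein to be tagged. PUB19 joins its U-box to armadillo repeats, a module for binding other proteins. With its close relative PUB18, and with PUB22 and PUB23, it is known in *Arabidopsis* as a negative regulator of drought responses, in the case of PUB18 and PUB19 those that depend on the hormone abscisic acid. HSP90 is a chaperone that holds signalling proteins, among them kinases and receptors, in a competent fold.

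The lines were hybridised in 3 named experiments. RNAi-A1 and RNAi-A3 shared Control-2 in the first, RNAi-A2, RNAi-B1 and RNAi-C1 shared Control-1 and Control-3 in the second, and the HSP90-TDNA lines shared Col-0 in the third. The experiment of *hsp90.2-3* is not named, and Col-0 was used for it too. In that comparison the mutation and a difference between experiments cannot be told apart. RNAi-A1, RNAi-A2, RNAi-A3 and Control-2 had 2 samples each and the other lines 3. Of 38 arrays, 37 correlated with the median profile at 0.975 to 0.987, and 1 array, a technical replicate of RNAi-A3 replicate 2, at 0.499. That array was left out. It gave *PUB19* a signal of 153, against 1679 on the other array of the same sample. Values of RNAi-A3 with it included are given where they turn a direction, a call or a count. The leaf gene *RCA* (Rubisco activase) read 15796 to 24497 over the 35 samples, the guard cell regulator *FAMA* 151 to 332 and *PYK10*, a beta-glucosidase best known from roots, 2021 to 4814, and the other 10 of 13 tissue markers had no named probe set here. In pooled tissue, fewer cells that express a gene and less RNA per cell cannot be told apart.

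*PUB19* was 1.39-fold to 5.57-fold the level of the controls in 8 of the 9 HSP90-reduced lines, with the highest value in *hsp90.2-3*. In HSP90.2-TDNA it was 1.04-fold, a direction that turned with single samples left out. In 6 of the 9 lines every sample lay above every control sample, and in 5 with the outlying array of RNAi-A3 included. In each of these 6 lines alone, 6.44% to 17.9% of all probe sets tested did so. The share that did so in as many lines was not counted. The mean change over the 9 lines was 1.15 ± 0.15 on the log2 scale (SE), with 1.27 ± 0.18 over the 5 RNAi lines and 0.52 ± 0.25 over the 3 HSP90-TDNA lines. These SEs, and those of the single lines below, use 1 estimate of the spread between samples, shared by all experiments. They do not measure the spread among lines, whose changes ran from 0.05 to 2.48. Changes are differences of log2(signal + 16), which understate the change of dim probe sets but matter little at the signals of *PUB19*. The median change of all 16703 probe sets tested lay between -0.03 and 0.08 in the single lines.

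In the first experiment the 2 samples of Control-2 read 404 and 775. RNAi-A1 read 1490 and 1157, a log2 change of 1.20 ± 0.38, and RNAi-A3 read 1273 and 1679, a change of 1.36 ± 0.38. Both samples of both lines exceeded the higher control sample. The changes nevertheless lean on the wide control, in which 2 arrays of replicate 2 gave 794 and 757 and replicate 1 was measured on 1 array. Without Control-2 replicate 1 or 2 the change of RNAi-A1 was 0.75 or 1.66. With the array that was left out averaged in, RNAi-A3 replicate 2 read 519, inside the range of Control-2, and the change of RNAi-A3 was 0.53 ± 0.41. Of all probe sets tested, 17.9% had both RNAi-A1 samples above both controls and 15.5% had both RNAi-A3 samples above them.

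The second experiment gave the tightest values. Control-1 read 425, 420 and 420, and Control-3 read 403, 403 and 446. RNAi-A2 read 1692 and 1794, a log2 change of 2.01 ± 0.31 or 4.04-fold, and RNAi-B1 read 1001, 1110 and 1017, a change of 1.28 ± 0.27 or 2.43-fold. RNAi-C1 read 621, 577 and 571, a change of 0.48 ± 0.27 or 1.39-fold. The 3 lines and the controls formed 4 separate bands with no overlap, although RNAi-C1 lay closest to the controls. How many probe sets form such bands was not counted. The share of probe sets with every line sample above all 6 control samples was 6.44% for RNAi-B1, 9.72% for RNAi-C1 and 11.1% for RNAi-A2. Among increases in a line, that of *PUB19* stood at rank 9 of 16703 for RNAi-A2, rank 62 for RNAi-B1 and rank 1321 for RNAi-C1.

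In the third experiment Col-0 read 215, 282 and 391. HSP90.1-TDNA read 223, 583 and 600, a log2 change of 0.55 ± 0.31, and HSP90.2-TDNA read 249, 432 and 247, a change of 0.05 ± 0.31. The change of HSP90.1-TDNA was 1.001 without its replicate 1, 0.34 without its replicate 2, 0.32 without its replicate 3 and 0.35 without Col-0 replicate 1. That of HSP90.2-TDNA was -0.20 without its replicate 2, -0.14 without Col-0 replicate 1 and 0.27 without Col-0 replicate 3. HSP90.3-TDNA read 333, 866 and 662, a change of 0.97 ± 0.31 or 1.95-fold. Each of these 3 lines had at least 1 sample inside the range of Col-0. In Col-0, HSP90.1-TDNA and HSP90.3-TDNA the lowest sample was replicate 1, and in HSP90.2-TDNA replicates 1 and 3 were nearly equal at the bottom. Replicate numbers are not stated to mark a shared batch. The share of probe sets with all line samples above all Col-0 samples was 6.02% in HSP90.3-TDNA, 4.35% in HSP90.1-TDNA and 3.98% in HSP90.2-TDNA.

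The highest signals of *PUB19* were those of *hsp90.2-3*, with 2468, 1482 and 1284, a log2 change of 2.48 ± 0.31 against Col-0 and the increase ranked 8 of 16703. The highest Col-0 sample, 391, was far below the lowest of these. Of all probe sets tested, 11.7% had 3 *hsp90.2-3* samples above 3 Col-0 samples. *HSP90.2* is affected both in this mutant and in HSP90.2-TDNA, whose mean signal was 309 ± 106 (SD, n = 3) against 1745 ± 634 in *hsp90.2-3*. The Methods place HSP90.2-TDNA in the third experiment and *hsp90.2-3* in none, and these lines were not tested against each other.

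**Figure D1:**
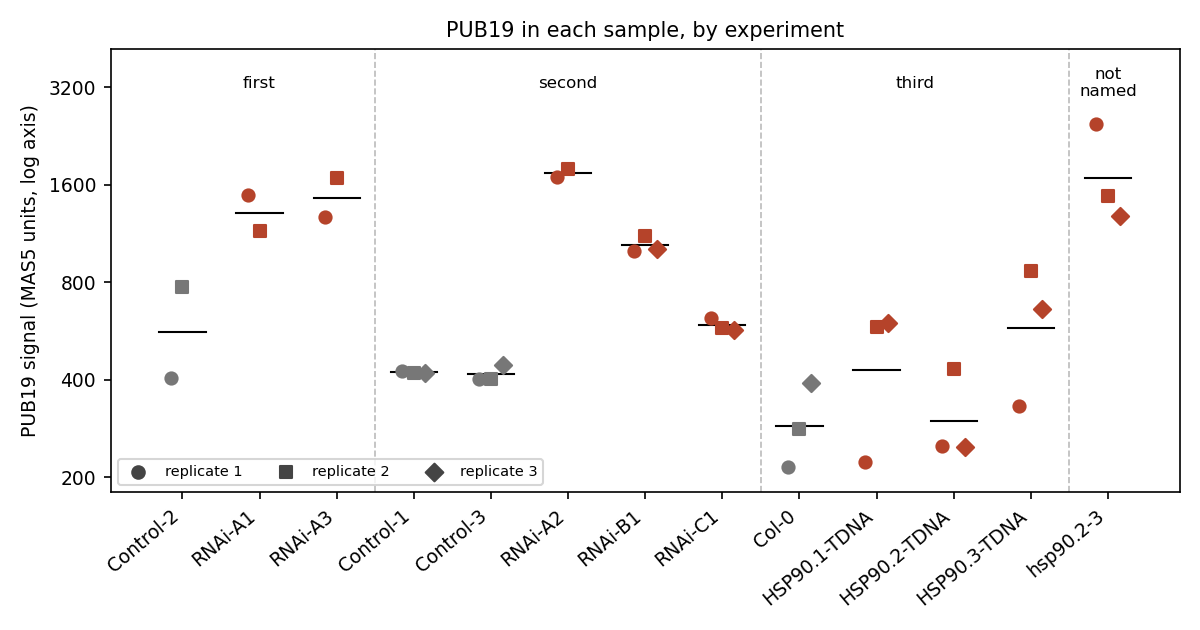
*PUB19* signal (MAS5 units, log axis) in each of the 35 biological samples, with lines grouped by experiment, controls in grey and HSP90-reduced lines in red, marker shapes for replicate numbers, and horizontal bars for the mean taken on the log2 scale. In the second experiment the samples of each line lie close together, from 403 to 446 in the controls and from 1692 to 1794 in RNAi-A2, whereas in the third HSP90.1-TDNA alone spans 223 to 600.

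**Figure D2:**
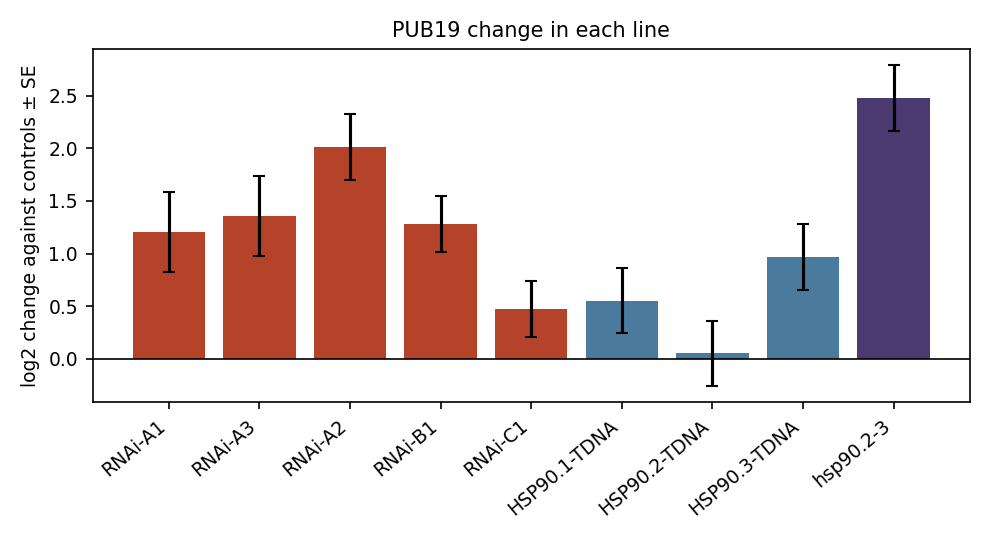
Log2 change of *PUB19* (y axis) in each HSP90-reduced line (x axis) against the controls of its experiment, with bars for the change and whiskers for its SE, RNAi lines in red, HSP90-TDNA lines in blue and *hsp90.2-3* in purple. The changes run from 0.05 in HSP90.2-TDNA to 2.48 in *hsp90.2-3*. The SEs use 1 estimate of the spread shared by all experiments, though the within-line SD was 0.06 in the second and 0.60 in the third.

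In order of mean signal the 13 lines were *hsp90.2-3* (1745), RNAi-A2 (1743), RNAi-A3 (1476), RNAi-A1 (1323), RNAi-B1 (1043), HSP90.3-TDNA (620), Control-2 (590), RNAi-C1 (589), HSP90.1-TDNA (469), Control-1 (422), Control-3 (417), HSP90.2-TDNA (309) and Col-0 (296). Neighbours whose samples did not overlap were RNAi-A2 and RNAi-A3, RNAi-A1 and RNAi-B1, and RNAi-B1 and HSP90.3-TDNA, and all other neighbours overlapped. The share of all probe sets with such gaps was not counted. With the outlying array included the mean of RNAi-A3 was 896, below that of RNAi-B1. The order crosses experiments, whose levels were not set against a shared sample. The mean of Col-0 lay below those of the 3 vector controls, which ranged from 417 to 590. Measured against all 4 control lines together, the changes of the 4 lines that used Col-0 fell by 0.49, to 1.99 in *hsp90.2-3*, 0.47 in HSP90.3-TDNA, 0.06 in HSP90.1-TDNA and -0.44 in HSP90.2-TDNA. Experiment and the type of control cannot be told apart here.

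How far samples of a line spread differed widely between experiments. The pooled within-line SD of *PUB19* on the log2 scale was 0.42 over all samples, against a median of 0.20 over the probe sets tested, and 91.2% of probe sets had a lower one. In the second experiment it was 0.06, which only 2.76% of probe sets undercut, and in the third it was 0.60, with 96.2% of probe sets lower. The first experiment gave 0.43 and *hsp90.2-3* gave 0.49. Of the summed squared deviations of *PUB19* within lines, 72.7% came from the 12 samples of the third experiment and 0.95% from the 14 of the second.

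Differences between lines of 1 experiment were not themselves what the gene was chosen for, but the choice used increases in these same samples. The p-values are therefore not independent of the choice. With that limit, limma was used to test 8 such pairs, with p-values adjusted over all probe sets. *PUB19* was called in 1 of the 8. RNAi-A2 exceeded RNAi-C1 by 1.54 ± 0.35 (log2, SE; adjusted p = 0.0104), in a comparison in which 3.81% of probe sets were called in either direction. The call was lost without RNAi-A2 replicate 1 or replicate 2, which left that line with 1 sample, though the difference was 1.58 or 1.498 in those fits. The test named in the Methods gave an unadjusted p = 0.000399. It did not call the difference either once adjusted over all probe sets (adjusted p = 0.189), a step the paper did not apply to its gene lists. RNAi-A2 also carries construct A, as RNAi-A1 and RNAi-A3 do, and RNAi-C1 construct C.

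The other 7 pairs were not called, and their intervals leave room for sizeable differences. These intervals use 1 estimate of the spread shared by all experiments. They are therefore wide for the second experiment, where the within-line SD was 0.06, and narrow for the third, where it was 0.60. RNAi-B1 minus RNAi-C1 was 0.81 (95% interval 0.17 to 1.44, adjusted p = 0.119, with 6% of probe sets called), and RNAi-A2 minus RNAi-B1 was 0.73 (0.02 to 1.45, adjusted p = 0.762, 0.012% called). Samples did not overlap in either pair, but the share of all probe sets with no overlap was not counted for these pairs. Fitted on the samples of the 2 lines alone, with their small spread, both differences passed with limma, at adjusted p = 0.000141 and 0.00195. With the test named in the Methods, on the same samples, neither did, at adjusted p = 0.0803 and 0.665. HSP90.3-TDNA minus HSP90.2-TDNA was 0.91 (0.28 to 1.55, adjusted p = 0.745, 0.0359% called) and HSP90.3-TDNA minus HSP90.1-TDNA was 0.41 (-0.22 to 1.05, adjusted p = 0.7496, 0.114% called), and it turned to -0.035 without HSP90.1-TDNA replicate 1 and was 0.796 without HSP90.3-TDNA replicate 1. HSP90.1-TDNA minus HSP90.2-TDNA was 0.50 (-0.14 to 1.14, adjusted p = 0.907, 0.0239% called). RNAi-A3 minus RNAi-A1, which carry the same construct, was 0.15 (-0.63 to 0.93, adjusted p = 0.973, 0.00599% called). That direction turned to -0.68 with the outlying array of RNAi-A3 included (adjusted p = 0.268), to -0.026 without RNAi-A1 replicate 2 and to -0.044 without RNAi-A3 replicate 2. Between the vector controls, Control-3 minus Control-1 was -0.02 (-0.65 to 0.62, adjusted p = 0.996, 0.0299% called).

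Among the other U-box ligases that could be followed, *PUB24* and *PUB23* were higher in *hsp90.2-3*, and *PUB43* in RNAi-C1. Of 59 listed members, 26 are annotated as such in the gene table used here, 11 of these had a probe set, and 8 besides *PUB19* passed the filter. *PUB18* had no named probe set and is not analysed here, and *PUB15* and *PUB22* were too dim to be tested, at 6.59 to 68.8 and 17.8 to 106. Over the mean of 9 lines, 1 of the 8 was called, in a comparison in which 2.36% of probe sets were called in either direction, and the median change of the 8 was -0.03 against 0.00 over all probe sets tested.

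The member called was *PUB24*, which with PUB22 and PUB23 dampens immune signalling in *Arabidopsis*. Its mean change was 0.45 ± 0.11 (limma adjusted p = 0.0169), and it was higher in 8 of the 9 lines, all but RNAi-A1. With the outlying array included, the change in RNAi-A3 turned from 0.05 to -0.06. The call was lost without Control-2 replicate 1 (adjusted p = 0.0672) or Col-0 replicate 2 (adjusted p = 0.0788). In Col-0 it read 141, 172 and 180, and in *hsp90.2-3* it read 292, 425 and 469, a change of 1.17 ± 0.22 (adjusted p = 0.000962) with no overlap. Control-1 read 154, 164 and 227, Control-3 134, 139 and 144, and RNAi-A2 245 and 250. RNAi-B1 read 245, 248 and 255, likewise above all 6 controls, at adjusted p = 0.129. Across the 9 lines *PUB24* correlated with *PUB19* at r = 0.49, and across within-line deviations at r = 0.61.

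*PUB23*, which acts with PUB22 in drought responses, was dim throughout, at 12.8 to 196 over the 35 samples. Col-0 read 16.9, 19.2 and 21.6 and *hsp90.2-3* 48.3, 92.4 and 196, a change of 1.70 ± 0.47 (limma adjusted p = 0.0208). All 3 Col-0 samples lay below the filter on low values, and the size of the change moved with the number added before log2, at 2.12 with 4 in place of 16 and 0.996 with 64, both called. It was not called without Col-0 replicate 2, *hsp90.2-3* replicate 1 or *hsp90.2-3* replicate 2 (adjusted p = 0.0687, 0.0543 and 0.13). The vector controls all read 88.5 or more, so Col-0 stood apart from them, and the RNAi lines changed by -0.28 to 0.58 with none called. Its mean change, 0.56, did not pass (adjusted p = 0.222).

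Among the rest, *PUB43* was called once, in RNAi-C1, which read 367, 385 and 515 against 212 to 347 in Control-1 and Control-3, a change of 0.57 ± 0.16 (adjusted p = 0.0226), and not without RNAi-C1 replicate 1 (adjusted p = 0.215) or Control-3 replicate 1 (adjusted p = 0.0527). *PUB25* and *PUB26*, ligases of cold and immune signalling, had their lowest changes in the same line, -0.57 (adjusted p = 0.0868) and -0.80 (adjusted p = 0.0557). *PUB49*, *MAC3A* and *MAC3B*, the latter a pair of splicing-complex subunits, stayed within -0.17 and 0.13 in the 9 lines, but with the outlying array included RNAi-A3 gave them -0.62, -0.81 and -0.38, none called. By line, 1 of 8 ligases was called in RNAi-C1, where 8.47% of probe sets were called in either direction, and 2 of 8 in *hsp90.2-3*, where 9.7% were. None of the 8 was called by limma in RNAi-B1 (1.29% of probe sets called), RNAi-A2 (1.19%), HSP90.3-TDNA (0.108%), HSP90.1-TDNA (0.0299%), RNAi-A3 (0.018%), RNAi-A1 (0.012%) or HSP90.2-TDNA (0.00599%), and at an unadjusted p under 0.05 there were, in the same order, 1, 2, 2, 1, 0, 0 and 1. The shares of all probe sets at that unadjusted threshold were 12%, 13.3%, 9.31%, 7.79%, 5.57%, 4.39% and 7.54%.

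Genes of the pathway that PUB19 acts on were sparsely named. Of 51 listed genes of abscisic acid signalling and metabolism 1 had a named probe set, of 21 genes induced by abscisic acid or drought 5 had, and of 9 other ubiquitin ligases of these responses none had. The signalling gene was *EEL*, a bZIP transcription factor of seeds, whose mean change was 0.07 ± 0.11 (adjusted p = 0.867), and which passed the filter through 1 line alone. The 5 induced genes were *LEA4-5*, a late embryogenesis abundant protein that accumulates on water loss, the dehydrins *COR47* and *LTI30*, and the chloroplast proteins *COR15A* and *COR15B* of cold acclimation. All 5 had a mean change above 0, as had 50% of all probe sets tested, with a median of 0.35 against 0.00 over all. Of the 5, 2 were called, where 2.36% of all probe sets were, and 1 of these, *LEA4-5*, passed the filter through HSP90-reduced lines only. Its call therefore lends no support to a count of increases in those lines.

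*LEA4-5* had the largest mean change of the 5, 1.04 ± 0.23 (limma adjusted p = 0.0123). Its means in all 4 control lines, 22.3 to 69.2, lay below the filter on low values, and its mean change was 1.24 with 4 added before log2 and 0.68 with 64, both called. It read 24.4, 82.8 and 100 in Col-0 and 257, 299.9 and 321 in *hsp90.2-3*, a change of 1.99 ± 0.49 (adjusted p = 0.0091). Without Col-0 replicate 1, its lowest sample there, neither the mean (adjusted p = 0.0923) nor the change in *hsp90.2-3* (adjusted p = 0.0721) was called, and without Control-2 replicate 2 the mean was not (adjusted p = 0.0517). Control-1 read 33.0, 58.5 and 66.7, and Control-3 9.09, 16.3 and 41.4. All samples of RNAi-A2, at 112 and 207, of RNAi-B1, at 88.4, 142 and 159, and of RNAi-C1, at 84.4, 90.4 and 104, lay above these 6 controls. Their changes of 1.79, 1.53 and 1.14 had adjusted p = 0.0675, 0.0688 and 0.0883. The one change below 0 was that of HSP90.1-TDNA, -0.52. Across the 9 lines *LEA4-5* correlated with *PUB19* at r = 0.73.

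*COR47* changed less but more evenly, with a mean of 0.35 ± 0.06 (limma adjusted p = 0.00203) and single changes of 0.05 to 0.95. It read 3673, 3911 and 5180 in Col-0 and 7024, 8353 and 9197 in *hsp90.2-3*, a change of 0.95 ± 0.14 (adjusted p = 4.13e-05). Both calls held in all 42 alternative limma fits, while the test named in the Methods, after adjustment, called none of the listed genes in *hsp90.2-3*. *LTI30* was called in *hsp90.2-3*, at 1.33 ± 0.40 (adjusted p = 0.0303), with 585, 617 and 1094 in Col-0 and 1341, 1800 and 2697 in the mutant, and its mean change of 0.43 did not pass (adjusted p = 0.272). The call in *hsp90.2-3* was lost without Col-0 replicate 1 or 2 or *hsp90.2-3* replicate 1 or 3 (adjusted p = 0.11, 0.116, 0.154 and 0.0712). In RNAi-C1 it read 1022, 1050 and 1062, below all 6 controls at 1363 to 1435, and the change of -0.42 was not called (adjusted p = 0.462). The share of all probe sets that lay below all controls there was not counted. *COR15A* and *COR15B* had mean changes of 0.28 and 0.16 (adjusted p = 0.506 and 0.698). In the 8 lines other than *hsp90.2-3* limma called none of the 6 genes of both lists, and at an unadjusted p under 0.05 there were 2 each in RNAi-B1, RNAi-A2 and HSP90.3-TDNA, 1 each in HSP90.1-TDNA and RNAi-C1, and 0 in the others. The shares of all probe sets at that threshold were 12%, 13.3%, 9.31%, 7.79% and 25.6% in these 5 lines.

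**Figure D3:**
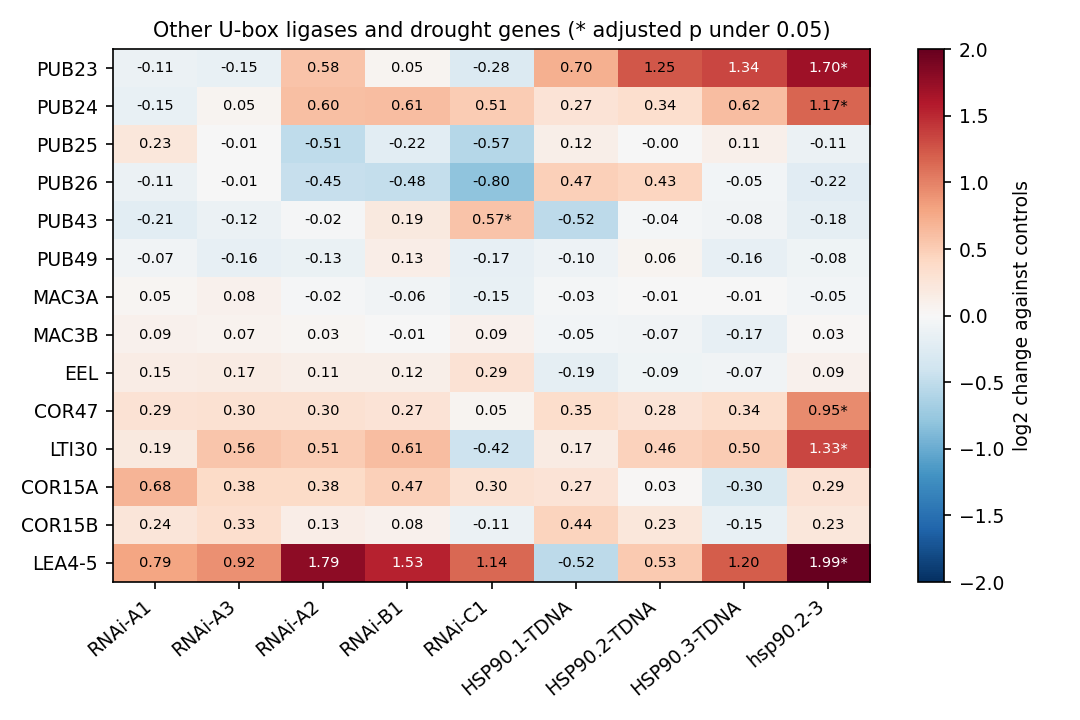
Log2 change against controls (colour and printed value) of the 8 other U-box ligases tested, *EEL* and the 5 genes induced by abscisic acid or drought (rows) in the 9 HSP90-reduced lines (columns), with an asterisk for a limma adjusted p under 0.05. The asterisks stand in *hsp90.2-3* for *PUB23*, *PUB24*, *COR47*, *LTI30* and *LEA4-5*, and in RNAi-C1 for *PUB43*. *LEA4-5* and *EEL* passed the filter through HSP90-reduced lines only.

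The genes most like *PUB19* were ranked by Pearson r across the 9 line changes, over the 4564 other probe sets whose 9 changes had an SD of at least 0.25. These changes share controls within an experiment, and 4 of the 9 share Col-0, so r is a description with no p. The median r was 0.03, with 56 probe sets over 0.8 and 17 under -0.8. Of the 30 highest, 14 had a single named gene, and the 15 named genes reached down to r = 0.832, with the next at 0.831. They ranked by likeness of profile, whatever their level.

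AT1G64380, annotated with transcription factor activity, followed *PUB19* most closely of the named genes, at r = 0.97. Its changes fell in order from 2.22 in *hsp90.2-3* through 1.59 in RNAi-A2 and then 1.16 in RNAi-B1, 0.93 in RNAi-A1, 0.88 in RNAi-A3, 0.63 in RNAi-C1, 0.62 in HSP90.3-TDNA and 0.39 in HSP90.1-TDNA to -0.03 in HSP90.2-TDNA. In signals, it read 88.4, 88.7 and 94.6 in Col-0, 77 to 112 in HSP90.2-TDNA and 417 to 576 in *hsp90.2-3*. The order of its RNAi lines in the second experiment, RNAi-A2 above RNAi-B1 above RNAi-C1, was that of *PUB19*. The gene was picked for its r over these same changes, so the shared order adds no support.

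AT4G28140, also annotated as a transcription factor, had r = 0.90 and the largest changes of the 15, with a mean of 1.02 and 2.66 in *hsp90.2-3*, where it read 506, 834 and 1000 against 89.5, 101 and 128 in Col-0. AT2G23120 (r = 0.96), AT5G15190 (0.94), AT1G16850 (0.94), AT2G21820 (0.89) and AT4G27350 (0.89) came between or next, followed by AT1G65490 (0.89), AT3G11420 (0.88), a putative glycosyl transferase, AT1G78070 (0.88) and AT5G42570 (0.88), annotated to protein transport in the endoplasmic reticulum. AT2G28400 (0.87), AT5G19875 (0.86), AT1G58420 (0.85) and *CCMH* (0.83), a factor of cytochrome c maturation in mitochondria, closed the list. *CCMH* had a mean change of -0.28, and was highest where *PUB19* was highest, at 0.20 in *hsp90.2-3*, and lowest in RNAi-C1, at -0.76. Of the 15, 5 were higher in all 9 lines, and 4 with the outlying array included.

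By line, all 15 were higher in RNAi-A2, RNAi-B1 and *hsp90.2-3*, with median changes of 0.96, 0.64 and 0.97, and 7 of 15 in HSP90.2-TDNA, with a median of 0.00. These counts follow from how the 15 were chosen. In RNAi-A3 14 of the 15 were higher, with a median of 0.37, and 9 with a median of 0.24 when the outlying array was included, AT1G64380 then at 0.79. With that array 10 of the 15 were again among the 15 most alike. The list rested in large part on *hsp90.2-3*: without that line 4 of the 15 were again among the 15 most alike, AT1G64380, AT5G15190, AT2G21820 and AT1G16850, although all 15 kept an r of 0.75 or more. Without HSP90.2-TDNA 8 of the 15 were again among them.

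The 5 named genes most opposite to *PUB19* were AT2G48060 (r = -0.90), AT3G21670 (-0.88), AT1G74940 (-0.87), AT5G07740 (-0.86) and AT3G25290 (-0.83). AT3G21670 is *NPF6.4*, of the NRT1/PTR transporter family. It changed by -0.59 in *hsp90.2-3* and -0.50 in RNAi-A2 and by 0.25 in HSP90.1-TDNA. AT3G25290 changed by -1.11 in *hsp90.2-3* and by no more than 0.38 in size in the other lines.

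**Figure D4:**
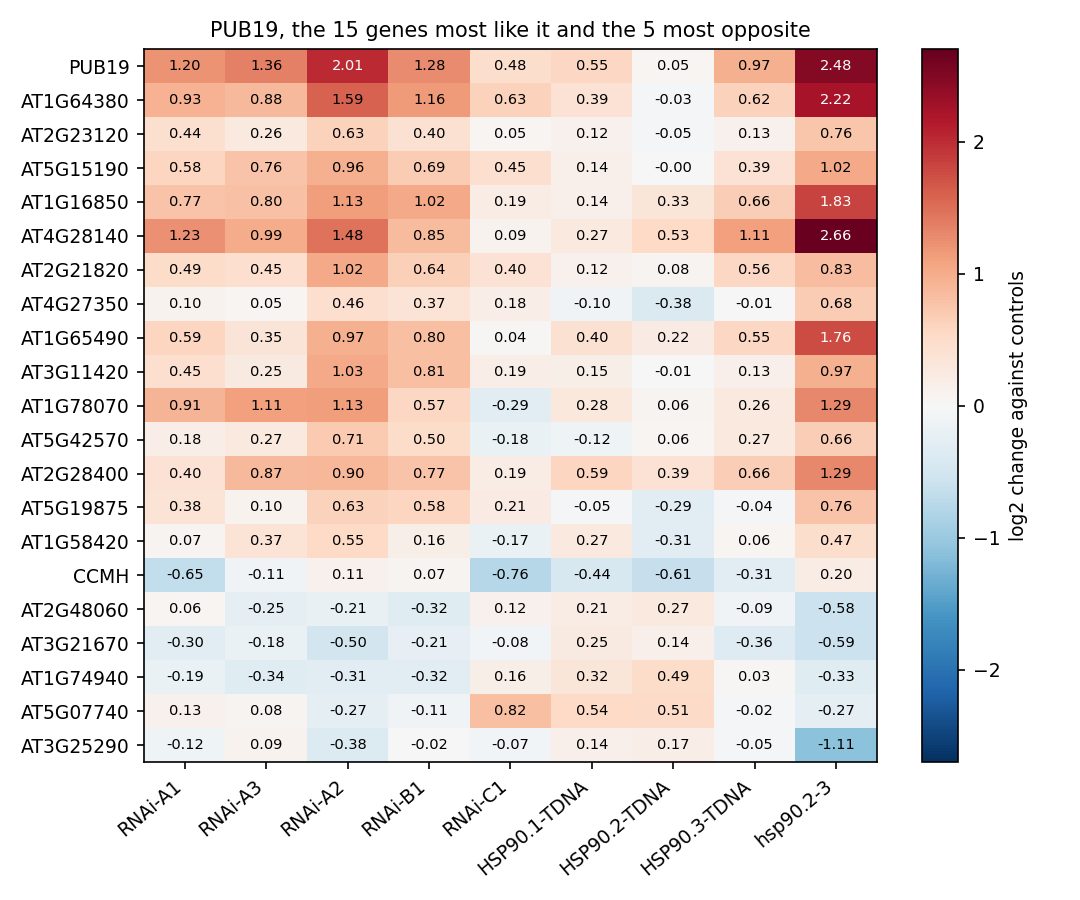
Log2 change against controls (colour and printed value) of *PUB19*, the 15 named genes with the highest r to it and the 5 with the lowest (rows) in the 9 HSP90-reduced lines (columns). AT1G64380 tracks *PUB19* from -0.03 in HSP90.2-TDNA to 2.22 in *hsp90.2-3*.

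Likeness across lines and likeness between samples of 1 line picked out different genes. Correlated over the within-line deviations of the 35 samples, the 15 genes had r between -0.45 (*CCMH*) and 0.69 (AT2G28400), and 5 of them exceeded 0.5, against 3.84% of all probe sets tested. The 15 were drawn from the 4564 probe sets with an SD of at least 0.25, for which that share was not counted. AT1G64380 had a within-line r of 0.21. The 10 named genes with the highest within-line r, picked after their values were seen, held none of the 15, and had r of 0.80 to 0.88 within lines but 0.03 to 0.57 across lines. They include AT5G52750 (0.88), AT4G36500 (0.87) and *CML38* (0.85), a calmodulin-like calcium-binding protein. Since the third experiment holds most of the within-line variation of *PUB19*, it weighs most here. In its 12 samples *CML38* had r = 0.94, and in the other 23 samples 0.61, while AT5G52750 had 0.89 and 0.87.

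**Figure D5:**
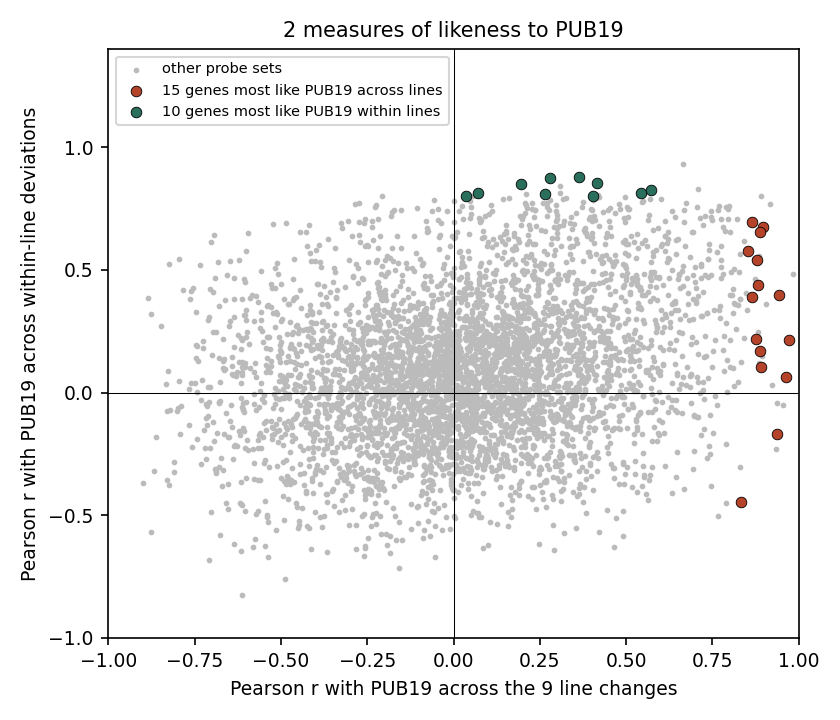
Pearson r with *PUB19* across the 9 line changes (x axis) and across within-line deviations of 35 samples (y axis) for probe sets with an SD of line changes of at least 0.25. The 15 genes most alike across lines (red) lie at 0.83 to 0.97 on the x axis and from -0.45 to 0.69 on the y axis, and the 10 most alike within lines (green) lie at 0.03 to 0.57 and 0.80 to 0.88.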

How the data were processed

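The authors deposited a linear MAS5 intensity for each probe set on each array, with every array scaled to 1 target, since trimmed means (outer 2% at each end removed) were 499.7 to 499.9. The version of MAS5 is not given in the sources used here, and the Methods name PLIER. Array medians were 171 to 221, and 339 on the array left out. Their number, 2 or 3 samples a line, limits the precision.

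The software was R 4.3.3 and limma 3.58.1. Technical replicates were averaged on log2(signal + 16). The 64 control probe sets were left out, and 16703 probe sets were tested, those whose mean in some line exceeded the 35th percentile (a signal of 90.3). The model held 1 mean per line (22 residual degrees of freedom, prior 6.42, trended), with Benjamini-Hochberg adjustment over all probe sets tested and calls at an adjusted p under 0.05. Whether samples of a line came from separate cultures is not stated, so p-values measure the spread between these samples, pooled over all lines and experiments. All 38 columns of the table matched a sample, leaving 0 unused.

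Genes were named through probe sets with 1 gene (13513, with 503 naming several and 8730 none). Coordinates are not printed. The members and lists were chosen with earlier results of these data known. Named are *PUB19*, *PUB18*, list members called over 9 lines (otherwise up to 4 with the largest mean change), members called in at least 3 lines, and the 15 most and 5 least alike genes, and further names were added after their values were seen. Alternatives were other scalings, offsets, filters, controls, tests and left-out samples.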

Additional observations from a re-analysis of the deposited data

Results flagged for a closer look

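Over the 15 tested genes of the U-box, abscisic acid and drought lists, *PUB19* included, differences between lines of 1 experiment were looked at in 7 pairs, and 1 passed the threshold. *PUB19* was 1.54 higher (log2) in RNAi-A2 than in RNAi-C1, with a limma adjusted p of 0.0104 that ranged from 3.31e-05 to 0.189 over the alternatives. The gene was chosen by its increase in these same lines, so that p is not independent of the choice.

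In the 6 samples of Control-1 and Control-3, 1 sample of Control-1 stood apart from the other 5 for *PUB24*: it read 227 against 134 to 164, and its gap to the next sample was 0.675 of the range. Chance marks about 1 in 20 groups in this way, and 15 genes were looked at.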

How the results depend on the processing

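The cause of the shifts below was not tested. Between them the other scalings, offsets, technical replicates and single controls moved no *PUB19* change by more than the pooled within-line SD of 0.42. With the outlying array included, the change of RNAi-A3 was 0.53, RNAi-A3 minus RNAi-A1 was -0.68, and 218 probe sets were called over 9 lines against 395. Against all 4 control lines the changes were 1.99 in *hsp90.2-3*, 1.79 in RNAi-A3, 1.64 in RNAi-A1, 0.47 in HSP90.3-TDNA, 0.062 in HSP90.1-TDNA and -0.44 in HSP90.2-TDNA.

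With 1 sample left out, the change ran from 2.201 to 2.69 in *hsp90.2-3*, 1.97 to 2.06 in RNAi-A2, 1.24 to 1.31 in RNAi-B1, 0.90 to 1.82 in RNAi-A3, 0.75 to 1.66 in RNAi-A1, 0.68 to 1.35 in HSP90.3-TDNA, 0.44 to 0.50 in RNAi-C1, 0.32 to 1.001 in HSP90.1-TDNA, -0.20 to 0.27 in HSP90.2-TDNA and 1.05 to 1.26 in the mean of 9. RNAi-A3 minus RNAi-A1 ran from -0.044 to 0.35 (-0.026 without RNAi-A1 replicate 2, -0.044 without RNAi-A3 replicate 2), HSP90.3-TDNA minus HSP90.1-TDNA from -0.035 to 0.80 (-0.035 without HSP90.1-TDNA replicate 1), Control-3 minus Control-1 from -0.063 to 0.0070 (0.0064 without Control-3 replicate 1), and RNAi-A2 minus RNAi-C1 from 1.498 to 1.58. Listed abscisic acid and drought genes called ran from 1 to 3 in *hsp90.2-3* and from 1 to 2 over 9 lines, both 1 without Col-0 replicate 1. In the main fit 9.7% of all probe sets were called in *hsp90.2-3* and 2.36% over 9 lines. The upper counts include *LEA4-5*, which passed the filter through HSP90-reduced lines only and so lends them no support. Probe sets called over 9 lines ran from 240 to 563, with 240 without Control-2 replicate 1, 244 without Col-0 replicate 1 and 249 without Col-0 replicate 2. Where this left a line with 1 sample, that sample was assumed to vary like the other lines.

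The methods' t-test after Benjamini-Hochberg gave RNAi-A2 minus RNAi-C1, 1.54, an adjusted p of 0.189, and called 1 of the listed genes each in RNAi-B1, RNAi-A2 and RNAi-C1 and 0 in *hsp90.2-3*, where 3 had an unadjusted p under 0.05. Its probe set calls were 398 in RNAi-B1, 422 in RNAi-A2, 554 in RNAi-C1 and 0 in *hsp90.2-3*, against 215, 198, 1414 and 1621 with limma. On the samples of 2 lines alone RNAi-A2 minus RNAi-B1, 0.73, and RNAi-B1 minus RNAi-C1, 0.81, were called with limma, and not with the methods' t-test (adjusted p = 0.665 and 0.0803). Over all alternatives the probe sets called ran from 0 to 1107 in RNAi-A3, 0 to 14 in RNAi-A1, 0 to 75 in HSP90.3-TDNA, 0 to 35 in HSP90.1-TDNA and 0 to 22 in HSP90.2-TDNA.

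Of the 15 genes most like *PUB19*, 8 to 13 were again chosen under other measures and scalings, 8 with no SD minimum, and 4 to 14 with 1 line left out, 8 without HSP90.2-TDNA and 4 without *hsp90.2-3*. Over all pairs of same-numbered samples, deviations were mostly weakly related (r over 0.1 in 22 of 62 pairs, median 0.05). Some pairs of the third experiment did deviate together, with r up to 0.36 between replicate 2 of HSP90.2-TDNA and of HSP90.1-TDNA. The lowest r was -0.22, between replicate 1 of Col-0 and of *hsp90.2-3*. With the replicate block the mean change of *PUB19* was 1.15, RNAi-A2 minus RNAi-C1 was 1.54 (adjusted p = 0.0094), and 481 probe sets were called over 9 lines. The replicate block changed no call of *PUB19* or of a listed abscisic acid or drought gene. Dim probe sets such as *PUB23* lie near the background, which limits them.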

Other observations

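*ORA47*, an AP2/ERF transcription factor of wound and jasmonate responses and the named gene of the touch and wound list, had large changes of both signs. They were -1.46 in RNAi-B1 (limma adjusted p = 0.0589), -0.91 in RNAi-C1 (adjusted p = 0.14) and 1.32 in HSP90.1-TDNA (adjusted p = 0.411), none of them called, with a mean of -0.09 over the 9 lines and r = -0.50 with *PUB19*. The clock gene *GI* changed by -0.23 to 0.18, with none called, and by 0.42 in RNAi-A3 with the outlying array included. Among tissue markers, *RCA* changed by -0.29 in *hsp90.2-3* (limma adjusted p = 0.0374) and *FAMA* by -0.44 in RNAi-C1 (adjusted p = 0.0382), each lost in 8 of 42 alternative fits, with -0.06 for *RCA* after quantile normalization, and *PYK10* was not called in any line, with changes of -0.53 to 0.18.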
